A study of Mus musculus with 56 samples.

Results

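A set of 10 transcription factor genes that steer the fate of activated lymphocytes were followed through the activation of mouse CD4 T cells: Tbx21, Eomes, Gata3, Rora, Id2, Prdm1, Bhlhe40, Ahr, Runx3 and Zeb2. They were taken by gene symbol from 2 count tables, here called experiment 1 (19791 symbols) and experiment 2 (24421 symbols). All 10 symbols stand in both tables. In experiment 1 all 10 have at least 10 counts, the lowest number considered here, and in experiment 2 Zeb2 has 0 counts in all 38 libraries and the other 9 genes pass. The filter on low counts then left 9 of the 10 genes in the tests of experiment 1 (all but Ahr) and 5 in those of experiment 2 (Gata3, Id2, Bhlhe40, Ahr and Runx3).

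The study sequenced 3′ ends of transcripts in 56 libraries of spleen CD4 T cells from C57BL/6 mice, in 19 groups, and asked how the concentration of cells in culture bears on early memory differentiation. Activation was by beads coated with anti-CD3 and anti-CD28, and cytokines were not added. Experiment 1 has 6 groups of 3 libraries: activated cells sorted as CD62L negative or CD62L positive at 48 and at 72 h, in 96-well plates started at 250000 cells per ml, and unactivated mature (CD44 positive, CD62L negative) and naive (CD44 negative, CD62L positive) cells. The unactivated cells of experiment 1 were enriched with magnetic beads (MACS), whereas the activated cells were sorted, so that activation and the way of purifying cannot be told apart there. Experiment 2 has 38 libraries: cells started at 1000000 per ml (high concentration) or 62500 per ml (low concentration) in 24-well plates and sorted for CD4 at 18, 30, 48 and 72 h, cells started at 250000 per ml and sorted as CD44 positive and CD62L negative or positive at 48 and 72 h, and sorted naive cells. Of its 13 groups 12 have 3 libraries, and the low concentration at 72 h has 2. The sources used here do not give the age or sex of the mice, nor whether replicates are separate animals or cultures, and the p-values therefore measure only how these libraries vary.

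In CD4 T cells, lineage is set by a few DNA-binding proteins. T-bet (Tbx21) and its relative Eomes belong to the T-box family and drive interferon gamma production and cytotoxic functions, GATA3 drives the T helper 2 programme and is needed for CD4 lineage choice in the thymus, and RORα (Rora) acts in T helper 17 cells. The aryl hydrocarbon receptor (Ahr) binds small aromatic ligands from diet, microbes and tryptophan breakdown and then switches on a set of enzymes headed by Cyp1a1. Runx3 acts with T-bet in type 1 cells and silences Cd4 in CD8 T cells. Id2 keeps E proteins from DNA, and Blimp-1 (Prdm1) and Zeb2 are transcriptional repressors that act in terminal effector cells. Bhlhe40 is a basic helix-loop-helix repressor of Il10 that T cells induce on stimulation.

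In experiment 1 library totals lay between 58750 (naive replicate 1) and 1738555 counts, and in experiment 2 between 587118 and 3359875. Levels are CPM, counts scaled by the effective (TMM) library size, which are not divided by transcript length and are not compared between genes or between the tables. CD4 T cell markers were present, with counts for 8 of 8 listed genes that the tables hold in each of the 56 libraries. Differences below are log2 differences ± SE. Summed markers of other lineages stood apart in the unactivated cells of experiment 1: the 9 B cell markers reached 661 to 731 CPM in mature and 919 to 1773 CPM in naive libraries, against 5.30 to 21.3 CPM in activated ones, where 2 to 7 of the 9 had any count. Pax5, a defining B cell factor gene, had 0 counts in all 18 libraries. The 9 red cell and platelet markers were at 17.6 to 124 CPM in activated and 55.3 to 79.2 CPM in mature libraries, against 372 to 965 CPM in naive ones. Values for myeloid and for CD8 T and NK cell markers are given with the comparisons below. Titles of experiment 2 carry a second number whose meaning is not given: at 72 h all high libraries have number 1 and all low libraries number 2, so that this number and the concentration cannot be told apart at that time. At 48 h all high libraries have number 2 and all low libraries but replicate 1 have number 1. The number thus goes largely with the concentration at 48 h too. The words higher, lower, rose and fell stand for an adjusted p under 0.05 (edgeR's quasi-likelihood test, Benjamini-Hochberg over every gene tested in the comparison), which is what a call means here. The GENCODE annotation places exons of other genes over those of Eomes, Gata3, Rora, Bhlhe40, Ahr and Zeb2, mostly on the opposite strand. No source used here says whether reads were counted by strand, so that part of these counts could belong to the overlapping genes. Fewer cells that express a gene and less RNA of it per cell cannot be told apart in these bulk libraries.

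Runx3, Gata3 and Id2 fell together at 18 h and rose again by 72 h in the mean of both concentrations. For Runx3 the low concentration libraries at these 2 times overlap. Sequences in front of the transcription starts of these 3 genes are shown. They are the 250 bases before each start on the gene's own strand, from RefSeq on GRCm38.p6, which is another build than the mm9 named in the submitters' processing notes. The RefSeq table held 12 promoters for 8 of the 10 genes. Capitals mark matches, on either strand, to 10 motifs known from other work. The first are the E-box CACGTG of basic helix-loop-helix repressors such as Bhlhe40 and the core GCGTG of the dioxin response element that the aryl hydrocarbon receptor binds. T-bet and Eomes bind AGGTGTGA, GATA3 binds AGATAA and the Runx proteins bind TGTGGT. The letters CAGGTG are those of Zeb proteins, AGGTCA is one copy of the Ror and nuclear receptor site, and GAAAGTGA is the site of Blimp-1. General activation motifs were added, TGANTCA for the AP-1 proteins and TTCNNNGAA for the Stat proteins. Different motifs can share bases, but the 3 matches marked here do not. Runx3 has a distal start (chr4:135120395-135120644, plus strand) and a proximal start (chr4:135152295-135152544, plus strand), and the Gata3 and Id2 windows lie at chr2:9878601-9878850 and chr12:25096093-25096342, both on the minus strand.
Runx3 distal: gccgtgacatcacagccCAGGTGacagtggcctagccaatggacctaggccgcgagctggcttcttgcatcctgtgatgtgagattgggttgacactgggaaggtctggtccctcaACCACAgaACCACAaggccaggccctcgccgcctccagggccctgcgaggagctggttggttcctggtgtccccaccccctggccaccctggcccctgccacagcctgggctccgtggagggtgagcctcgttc
Runx3 proximal: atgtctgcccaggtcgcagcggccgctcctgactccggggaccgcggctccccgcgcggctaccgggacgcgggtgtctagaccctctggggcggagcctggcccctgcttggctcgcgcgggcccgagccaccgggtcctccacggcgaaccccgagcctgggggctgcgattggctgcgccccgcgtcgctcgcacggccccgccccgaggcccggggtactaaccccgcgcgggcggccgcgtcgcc
Gata3: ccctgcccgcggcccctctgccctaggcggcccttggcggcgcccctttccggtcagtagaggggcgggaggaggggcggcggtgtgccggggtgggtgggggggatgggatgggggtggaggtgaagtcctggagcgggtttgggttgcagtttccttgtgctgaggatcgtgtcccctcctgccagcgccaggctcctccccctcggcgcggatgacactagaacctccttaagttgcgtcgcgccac
Id2: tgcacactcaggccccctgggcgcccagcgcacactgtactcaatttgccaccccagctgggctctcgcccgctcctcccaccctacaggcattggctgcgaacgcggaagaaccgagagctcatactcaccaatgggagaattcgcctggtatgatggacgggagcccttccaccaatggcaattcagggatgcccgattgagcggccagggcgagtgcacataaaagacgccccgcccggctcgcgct
The Runx3 distal window holds 2 copies of the Runx letters, on the other strand, where they read ACCACA, and 1 Zeb E-box, and the proximal window, the Gata3 window and the Id2 window hold none of the 10 motifs. Of 32851 RefSeq windows of this length, 14.0% held the Runx letters and 17.2% the Zeb E-box. The GATA letters stood in 9.99% of them, the receptor's GCGTG in 28.2%, the helix-loop-helix CACGTG in 6.02%, the Ror letters in 14.0%, AP-1 in 6.75%, Stat in 7.02%, the Blimp-1 letters in 1.21% and the T-box letters in 1.12%. Among the other members, GCGTG was in the Rora window, in 2 of the 4 Zeb2 windows, which overlap, and 2 times in the Prdm1 window, and the Zeb E-box was in the Tbx21 and Prdm1 windows. AP-1 letters were in the Prdm1 window and 2 times in another Zeb2 window, and Stat letters in the 2 Zeb2 windows that hold GCGTG. These matches are letters and say nothing about binding.

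The 18 h libraries of both concentrations in experiment 2 were set against naive cells. All 5 tested genes changed, where 65.9% of the 9239 genes tested were called: Bhlhe40 and Ahr appeared, and Gata3, Id2 and Runx3 fell. Bhlhe40 was at 66.9, 79.6 and 89.5 CPM at the high and 46.6, 54.4 and 39.1 CPM at the low concentration, against 0 counts in each of the 3 naive libraries. Every activated library was thus above every naive one, and the pooled level was at least 104-fold higher than the floor of 3 counts over the naive group (adjusted p = 7.58e-21). Ahr was at 0.929, 4.47 and 2.74 CPM at the high and 9.47, 10.9 and 23.1 CPM at the low concentration, again against 0 counts in naive cells, at least 11.5-fold higher than that floor (adjusted p = 4.51e-06). Ahr passed the filter on low counts mainly through the low concentration libraries from 18 to 48 h, where it is high.

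Id2 was lowest at 18 h. Its level there was 26.0, 23.8 and 21.9 CPM at the high and 40.1, 33.9 and 42.7 CPM at the low concentration, against 185, 231 and 204 CPM in naive cells, a difference of -2.76 ± 0.17 (adjusted p = 1.19e-19). The ranges are far apart: the highest 18 h library lies below the lowest naive library. Gata3 was at 36.2, 24.6 and 31.1 CPM (high) and 31.3, 24.2 and 28.5 CPM (low), against 75.4, 78.8 and 84.7 CPM in naive cells, a change of -1.44 ± 0.19 (adjusted p = 3.61e-09), also with no overlap. Runx3 was at 61.3, 84.8 and 71.2 CPM (high) and 59.0, 72.6 and 56.9 CPM (low), against 120.0, 135 and 75.2 CPM in naive cells, a change of -0.69 ± 0.18 (adjusted p = 0.000975), and here the highest 18 h library lies above the lowest naive one.

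Eomes, the T-box relative of T-bet, was too low in experiment 2 for the filtered tests, with 85 counts over all libraries. Its counts were 0, 0 and 2 at the high and 1, 1 and 0 at the low concentration at 18 h, against 7, 9 and 11 in naive cells, so each naive library held more than any 18 h library. Without the filter on low counts its change was -2.93 ± 0.82 (adjusted p = 0.00119) over 15497 genes, and the pooled level at 18 h was 8.83-fold lower than in naive cells (exact 95% interval 3.07 to 34.7, for counting error only). The other untested genes had 65 counts (Tbx21), 31 (Rora) and 21 (Prdm1) over the 38 libraries, and no test of them without the filter gave an adjusted p under 0.05 in any comparison.

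Among the partners and paralogues of the members, 4 of 14 tested genes rose by 18 h and 6 fell, where 32.3% of all genes rose and 33.6% fell. Id3, another inhibitor of E proteins, rose by 2.36 ± 0.14 (adjusted p = 1.24e-20), the opposite sign to Id2. Of 13 naive and memory regulators 10 fell and 1 rose, with Klf2, whose product keeps T cells quiescent and recirculating, at -4.76 ± 0.18 (adjusted p = 2.39e-28). In the T helper 1 list 9 of 15 tested genes rose and 4 fell, with the chemokine gene Ccl4 at 843 counts in the 3 high and 425 in the 3 low libraries, against 0 in naive cells (adjusted p = 1.26e-25).

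**Figure D1:**
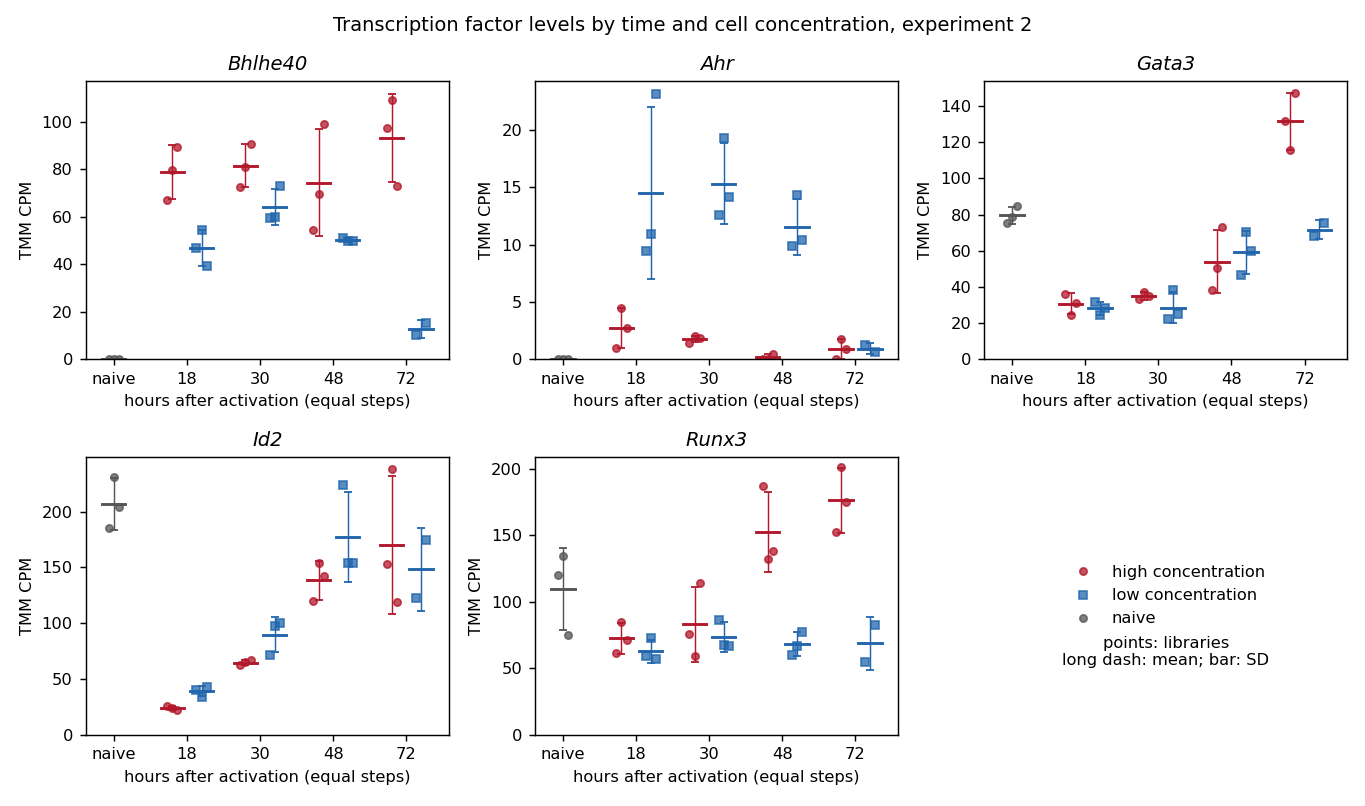
TMM-scaled CPM of the 5 tested genes in experiment 2 by hours after activation, with high concentration (circles) left of low concentration (squares) and naive cells in grey; points are libraries, dashes means and bars SDs. Bhlhe40 and Ahr start at 0 in naive cells, Id2 and Gata3 dip at 18 h, and by 72 h Runx3 and Bhlhe40 libraries at the high concentration lie above all low ones.

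From 18 to 72 h, in the mean of both concentrations, the 5 genes turned the other way. Gata3, Id2 and Runx3 rose and Ahr and Bhlhe40 fell, where 59.9% of all genes were called. This comparison shares its 18 h libraries with the one against naive cells. Id2 rose by 2.38 ± 0.16 (adjusted p = 3.47e-18). The high concentration libraries were at 26.0, 23.8 and 21.9 CPM at 18 h, 62.5, 65.1 and 66.7 at 30 h, 119.6, 154 and 142 at 48 h and 153, 238 and 119 at 72 h. The low concentration libraries were at 40.1, 33.9 and 42.7 CPM at 18 h, 71.9, 97.5 and 100.3 at 30 h, 224, 154 and 154 at 48 h and 122 and 175 at 72 h. Libraries at 48 and 72 h overlap each other, and those at 18, 30 and 48 h do not overlap within a concentration.

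Gata3 rose by 1.73 ± 0.17 (adjusted p = 1.35e-12). At 72 h it stood at 132, 116 and 147 CPM at the high and 68.0 and 75.3 CPM at the low concentration, so that the high libraries passed the naive range and the low libraries lay below its lowest value. Runx3 rose by 0.71 ± 0.17 (adjusted p = 0.000259) in the mean of both concentrations. Its group means went from 72.5 to 176 CPM at the high concentration. At the low concentration they went from 62.8 to 68.9 CPM, with ranges that overlap, and that change alone was not tested. Ahr fell by 2.71 ± 0.62 (adjusted p = 0.000213). The fall of Bhlhe40, -0.82 ± 0.18 (adjusted p = 9.3e-05), rests on the low concentration: the high concentration alone gave 0.25, adjusted p = 0.312, in an alternative chosen after the data were seen. At the high concentration alone the call of Ahr was lost too, at -1.64, adjusted p = 0.141.

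Concentration was then compared at each time. High concentration cells had less Ahr at 18, 30 and 48 h and more Runx3 and Bhlhe40 at 48 and 72 h, and Gata3 was higher at 72 h. Of the 5 genes 1 was called at 18 h and 1 at 30 h, both times Ahr, where 1.87% and 8.56% of all genes were called. Ahr passed the filter on low counts mainly through the low concentration libraries from 18 to 48 h. Each of these was at 9.47 CPM or more, against at most 8.88 CPM in any other library of experiment 2. Its place in these counts is therefore not independent of the groups where it is high. At 48 and 72 h 3 of 5 were called, where 25.9% and 26.5% of all genes were. For the mean of the 4 times the count was 4 of 5 (2 higher, 2 lower), where 20.5% of all genes were called.

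Ahr was called from 18 to 48 h. At 30 h it was at 1.44, 1.98 and 1.86 CPM at the high concentration, against 12.6, 19.3 and 14.1 CPM at the low one, a change of -3.03 ± 0.53 (adjusted p = 0.000101). At 48 h the 3 high libraries held 0, 0 and 1 counts, against 19, 25 and 26 in the low ones, which is 57.4-fold (exact 95% interval 9.96 to 2298) lower in the pooled level (adjusted p = 1.21e-06). No high library reached any low library at 18, 30 or 48 h. At 18 h the difference was -2.23 ± 0.61 (adjusted p = 0.0359); its call was lost without high replicate 1 (-1.86, adjusted p = 0.216), high replicate 3 (-2.21, adjusted p = 0.136), low replicate 2 (-2.36, adjusted p = 0.0612) or low replicate 3 (-1.81, adjusted p = 0.235). By 72 h both groups held 3 counts in all and the ratio, 0.935 with an exact interval of 0.125 to 6.98, gives no direction.

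Cyp1a1, a cytochrome gene that is the best known target of the receptor, was also lower at the high concentration, and its levels peaked later. It held at most 1 count in any library at 18 h. At 30 h it was at 2.15, 2.38 and 3.36 CPM at the high concentration, against 31.1, 37.5 and 35.3 CPM at the low one (-3.64 ± 0.35, adjusted p = 1.33e-10). At 48 h the values were 3.35, 1.82 and 1.81 CPM at the high concentration and 88.4, 97.0 and 88.9 CPM at the low one (-5.33 ± 0.36, adjusted p = 6.58e-16). Groups do not overlap at either time. At 72 h the high libraries had 0 counts and the low ones 16.8 and 15.9 CPM, at least 19.3-fold lower at the high concentration against the floor of 3 counts over the group. Ahr itself was near 0 at both concentrations by then. Cyp1a1 passed the filter on low counts through the low concentration at 30 to 72 h and CD62L negative cells at 48 h. Each of these libraries was at 15.9 CPM or more, against at most 4.96 CPM in any other of experiment 2. Its place in the tests and in the list counts below is therefore not independent of the groups where it is high.

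Ahrr, the repressor that the receptor induces against itself, was too low for the filtered tests. Its counts at 30 h were 0, 0 and 0 at the high and 6, 3 and 5 at the low concentration, at 48 h 0, 0 and 0 at the high and 12, 7 and 8 at the low concentration, and at 72 h 0, 1 and 0 at the high and 8 and 4 at the low concentration. Its pooled level was at least 5.35-fold lower at the high concentration at 30 h and at least 7.38-fold lower at 48 h, against the same floor. Of the 6 tested genes of the aryl hydrocarbon receptor list none was higher at the high concentration at any time, 1 was lower at 30 h, 2 at 48 h and 3 at 72 h, where Nqo1, a quinone reductase gene of the battery, was at -3.44 ± 0.75 (adjusted p = 0.000445). Of all genes 3.93% were lower at 30 h, 12.0% at 48 h and 13.5% at 72 h. Arnt, the partner without which the receptor does not bind DNA, differed by 0.41 ± 0.36 (adjusted p = 0.442) at 48 h. Tiparp, of the same list, was too low for the filtered tests and showed no such gap. Its means at the high and low concentration were 1.71 and 2.25 CPM at 30 h, 1.94 and 3.54 CPM at 48 h, and 2.34 and 0.918 CPM at 72 h. Lrig1 had the pattern of levels most like that of Ahr over the 13 groups (Pearson r 0.927, the highest of 9239 genes, as a description).

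**Figure D2:**
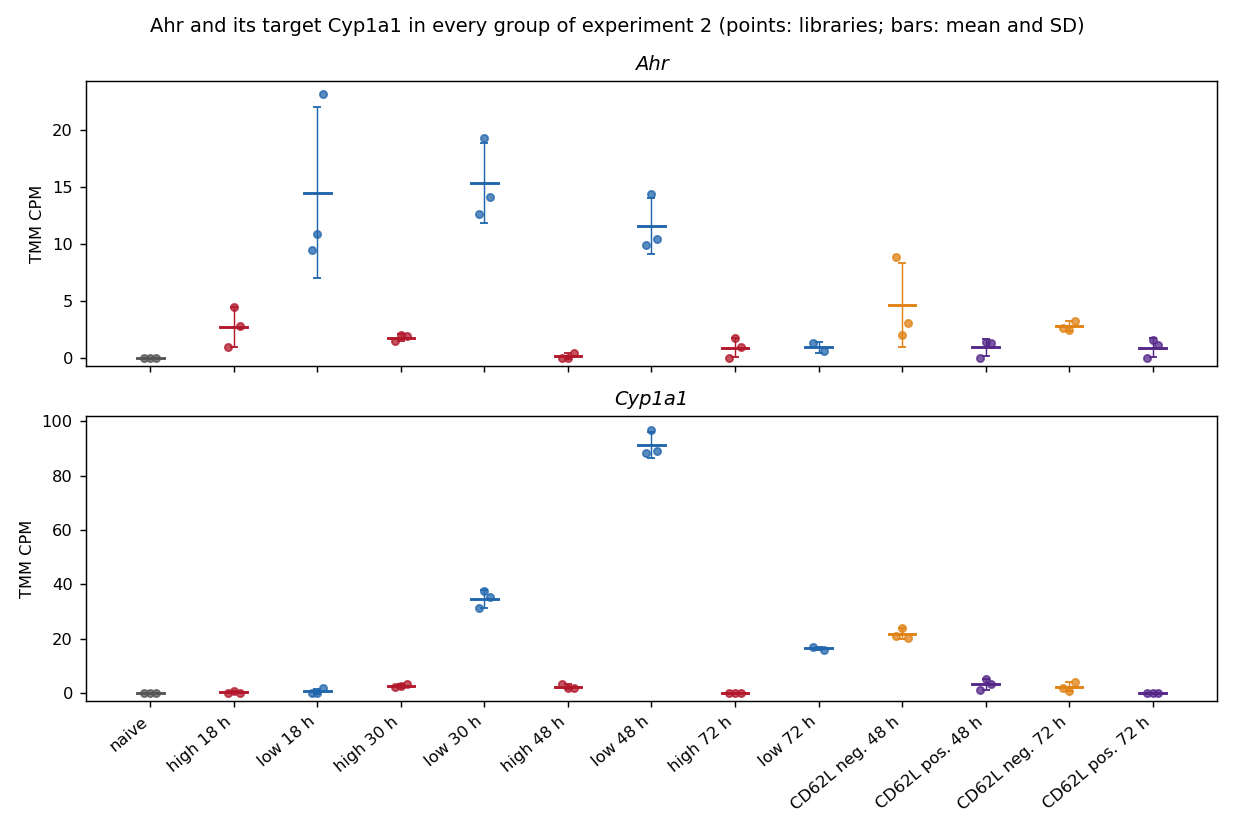
TMM-scaled CPM of Ahr (upper panel) and Cyp1a1 (lower panel) in all 13 groups of experiment 2; points are libraries and bars the mean and SD. Ahr is high at the low concentration from 18 to 48 h and Cyp1a1 from 30 to 72 h, and both are higher in CD62L negative than in CD62L positive cells at 48 h.

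Runx3 differed from 48 h on. It was at 187, 132 and 138 CPM at the high concentration, against 60.3, 66.6 and 77.7 CPM at the low one (1.15 ± 0.21, adjusted p = 2.01e-05), and at 72 h at 153, 202 and 175 CPM at the high, against 54.9 and 82.9 CPM at the low one (1.35 ± 0.24, adjusted p = 2.18e-05). All high libraries exceed all low ones at both times, and the groups overlap at 18 and 30 h, where the differences were 0.21 ± 0.24 (adjusted p = 0.827) and 0.19 ± 0.21 (adjusted p = 0.652). The difference itself grew between 18 and 48 h by 0.94 ± 0.31 (adjusted p = 0.0342), so that 1 of 5 genes was called in that test, beside 14.0% of all genes. From 18 to 72 h it grew by 1.14 ± 0.33 (adjusted p = 0.0131), and 2 of 5 genes were called, beside 16.3% of all. The growth to 48 h lost its call when 1 of 7 libraries was left out in turn (0.77 to 1.00, adjusted p from 0.0545 to 0.109), and the growth to 72 h without low replicate 1 at 72 h (0.88, adjusted p = 0.119). CD8 T and NK cell markers, whose cells also express Runx3, were at 21.8 to 32.7 CPM at the high and 13.8 to 22.4 CPM at the low concentration at 48 h, and at 32.6 to 38.7 CPM at the high and 14.7 to 15.6 CPM at the low concentration at 72 h, with counts for 1 or 2 of the 9 markers in each library. Nearly all of these counts were Cd8b1, which encodes a chain of the CD8 coreceptor. Of the 2 markers tested none was called at 48 h and 1 was higher at 72 h. At 18 h the sums were 67.8 to 95.9 CPM at the high and 48.4 to 62.7 CPM at the low concentration, and at 30 h 38.8 to 63.4 CPM at the high and 29.9 to 35.3 CPM at the low one. Their part in the Runx3 difference was not tested.

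Bhlhe40 was higher at the high concentration by 2.87 ± 0.28 (adjusted p = 2.29e-11) at 72 h. Its levels there were 97.4, 109 and 72.8 CPM at the high concentration, against 9.98 and 15.3 CPM at the low one. At 48 h they were 54.4, 69.6 and 98.9 CPM at the high and 50.9, 49.9 and 49.7 CPM at the low concentration, ranges that do not overlap but nearly touch. That smaller difference, 0.59 ± 0.20 (adjusted p = 0.0221), lost its call without high replicate 3 (0.32, adjusted p = 0.297), low replicate 2 (0.58, adjusted p = 0.0589) or low replicate 3 (0.58, adjusted p = 0.0677). Between 18 and 72 h the difference grew by 2.13 ± 0.36 (adjusted p = 1.42e-05). Hk2, the hexokinase gene of inducible glycolysis, had the pattern of levels most like that of Bhlhe40 over the 13 groups (Pearson r 0.969) and Chsy1 the next (0.966). Foxp3, which encodes the factor that defines regulatory T cells, was lower at the high concentration at 72 h (-2.88 ± 0.48, adjusted p = 7.65e-06). It was at 3.12, 1.72 and 8.29 CPM at the high concentration, against 46.1 and 18.2 CPM at the low one, and 5 of 8 regulatory T cell markers were lower and 0 higher at the high concentration, with summed levels of 1281 to 1321 CPM at the high and 1487 to 1752 CPM at the low concentration. At 48 h 3 of 8 of these markers were higher and 0 lower at the high concentration, with sums of 1249.9 to 1321 CPM at the high and 838 to 999 CPM at the low concentration. Of all genes 13.9% were higher and 12.0% lower at 48 h. Foxp3 went against these sums, with means of 4.12 CPM at the high and 6.97 CPM at the low concentration. The sums were only 167 to 228 CPM in naive cells, so they do not measure regulatory T cells alone. The part of these markers in the 48 and 72 h differences was not tested.

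Gata3 passed at 72 h alone, 0.88 ± 0.22 (adjusted p = 0.00251), and its groups overlap at 18, 30 and 48 h. The call at 72 h was lost without low replicate 1 (0.80, adjusted p = 0.0549) and with the second number as a factor (0.55, adjusted p = 0.135). Gata3 was closest in pattern to Faah and Mettl20 (Pearson r 0.958 and 0.957), and Runx3 to Fam114a2 and Rgs11 (0.946 and 0.926). Id2 was lower at the high concentration for the mean of 4 times, -0.33 ± 0.11 (adjusted p = 0.0198), a call lost without low replicate 2 at 72 h (-0.26, adjusted p = 0.101), and at no single time (adjusted p = 0.222, 0.111, 0.154 and 0.516 at 18, 30, 48 and 72 h). Its closest patterns were those of Mical1 and Snx20 (0.949 and 0.940). Over the 4 times the means of the other members were 1.14 ± 0.11 (adjusted p = 2.88e-11) for Bhlhe40, -2.69 ± 0.52 (adjusted p = 0.00011) for Ahr, 0.73 ± 0.11 (adjusted p = 1.48e-06) for Runx3 and 0.30 ± 0.12 (adjusted p = 0.0595) for Gata3. The Runx3 mean rests on the later times: 18 and 30 h alone gave 0.20, adjusted p = 0.522, an alternative chosen after the data were seen.

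Eomes counts at 48 h were 0, 0 and 0 at the high concentration, against 1, 4 and 8 at the low one, and the difference without the filter on low counts was called (adjusted p = 0.0135). At the other 3 times no Eomes difference was called.

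Among the genes that the T helper factors drive, those of the T helper 2 list were split at 48 h, with 4 higher and 3 lower of 9 tested at the high concentration, where 13.9% of all genes were higher and 12.0% lower, and the T helper 17 list with 3 higher and 3 lower of 7. Ccr6, a chemokine receptor gene of the T helper 17 list, was lower at -2.83 ± 0.23 (adjusted p = 9.2e-14). The T helper 1 list had 3 higher and 5 lower of 15, with Ccl4 at -3.71 ± 0.26 (adjusted p = 5e-16) and Ccl5, which encodes another chemokine, at 2.83 ± 0.39 (adjusted p = 1.07e-07). Runx1, the paralogue of Runx3, was lower at the high concentration at 18 h, -1.20 ± 0.28 (adjusted p = 0.00746), and at 30 h, -0.91 ± 0.24 (adjusted p = 0.00937).

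**Figure D3:**
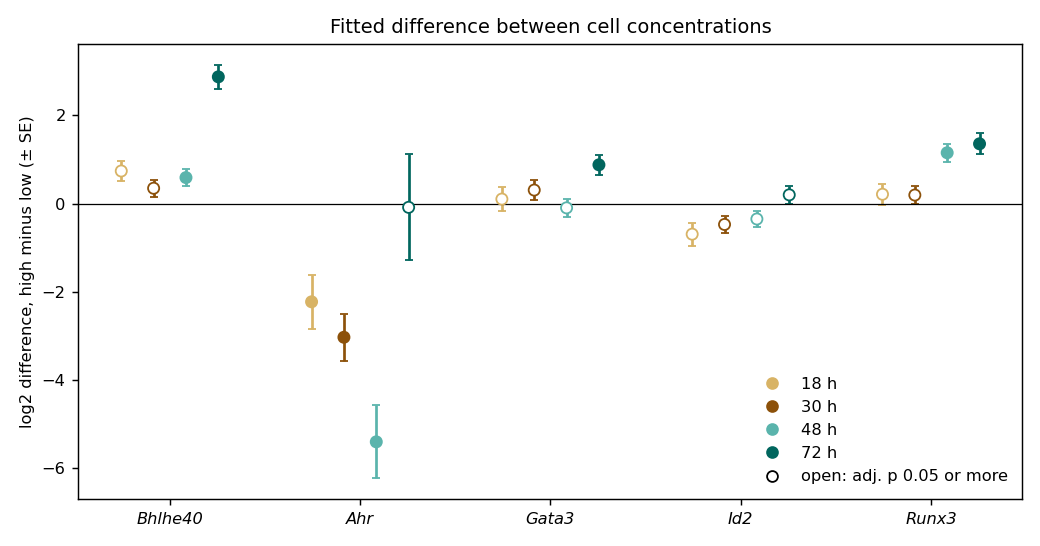
Fitted log2 difference of high minus low concentration (points) with its SE (bars) for the 5 tested genes at 4 times in experiment 2; filled points have an adjusted p under 0.05. Ahr lies below 0 from 18 to 48 h, Runx3 lies above 0 with a call at 48 and 72 h, and Bhlhe40 is farthest above 0 at 72 h.

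CD62L, the lymph node homing receptor, was then used to split cells from cultures started alike, and Bhlhe40 was higher on the CD62L negative side in 3 of 4 comparisons. In experiment 1 at 48 h it was the 1 called gene of 9, where 6.51% of all genes were called, and at 72 h it was 1 of 2, where 19.5% were. In experiment 2 at 48 h 3 of 5 genes were called, all higher, where 14.5% were called. At 72 h edgeR called 0 of 5, where 1.53% were called; at an unadjusted p under 0.05 there were 2, Gata3 and Id2, and DESeq2 called 2.

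In experiment 1 Bhlhe40 was at 193, 154 and 184 CPM in CD62L negative cells, against 83.3, 86.0 and 74.3 CPM in CD62L positive cells at 48 h (1.13 ± 0.18, adjusted p = 2.77e-05). At 72 h it was at 99.3, 103 and 85.2 CPM in CD62L negative and 51.9, 41.1 and 21.3 CPM in CD62L positive cells (1.26 ± 0.21, adjusted p = 3.57e-05). Neither pair overlaps. In experiment 2 at 48 h it was at 70.5, 75.1 and 64.9 CPM in CD62L negative and 14.9, 14.2 and 17.3 CPM in CD62L positive cells (2.18 ± 0.23, adjusted p = 5.32e-10).

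At 72 h in experiment 2 the split was not seen: 33.4, 36.8 and 23.4 CPM in CD62L negative cells stood against 30.7, 33.6 and 43.6 CPM in CD62L positive cells (-0.21 ± 0.23, adjusted p = 0.806). Every negative library was lower and every positive library higher at 72 than at 48 h, and the ranges overlap at 72 h. The change of the CD62L difference from 48 to 72 h was -2.39 ± 0.33 (adjusted p = 4.96e-06), in a test that was added after the values were seen and called 1 of 5 genes, beside 1.30% of all genes. In experiment 1 the same test gave 0.13 ± 0.28 (adjusted p = 0.885) for Bhlhe40. Cells of experiment 1 were in 96-well plates and sorted by CD62L alone, and those of experiment 2 were sorted for CD44 as well, and the experiments were not compared in 1 fit.

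Id2 followed Bhlhe40 in part. It was higher in CD62L negative cells of experiment 1 at 72 h, at 469.8, 428 and 378 CPM, against 228, 209 and 173 CPM in CD62L positive cells (1.05 ± 0.15, adjusted p = 3.06e-06). At 48 h in experiment 1 the values were 218, 219.5 and 222 CPM in CD62L negative and 159.9, 199 and 204 CPM in CD62L positive cells (0.23 ± 0.15, adjusted p = 0.441). Though every negative library is the higher, that difference is small. The growth of the difference, 0.82 ± 0.21 (adjusted p = 0.0334), was called as 1 of 9 genes in the added test, beside 1.89% of all genes, and the call was lost when 1 of 7 libraries was left out in turn (0.75 to 0.83, adjusted p up to 0.103).

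In experiment 2 Id2 was at 183, 206 and 173 CPM in CD62L negative and 111, 121 and 111 CPM in CD62L positive cells at 48 h (0.71 ± 0.18, adjusted p = 0.00505). At 72 h it was at 238, 241 and 163 CPM in CD62L negative and 133, 139.7 and 149.9 CPM in CD62L positive cells (0.60 ± 0.18, adjusted p = 0.0789). The negative libraries are above the positive ones at both times.

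At 48 h Ahr and Cyp1a1 were on the CD62L negative side too. In experiment 2 at 48 h Ahr was at 8.88, 2.01 and 3.02 CPM in CD62L negative and 0, 1.42 and 1.28 CPM in CD62L positive cells (2.23 ± 0.75, adjusted p = 0.0361). This call rests on few counts, 16, 7 and 6 against 0, 2 and 2, and was lost without negative replicate 1 (1.42, adjusted p = 0.25), positive replicate 1 (1.61, adjusted p = 0.198), positive replicate 2 (2.67, adjusted p = 0.0553) or positive replicate 3 (2.60, adjusted p = 0.0682). Cyp1a1 was at 21.1, 24.1 and 20.1 CPM in CD62L negative and 1.15, 4.96 and 3.21 CPM in CD62L positive cells (2.84 ± 0.38, adjusted p = 2.64e-07). Ccr6 was higher in CD62L negative cells by 3.52 ± 0.29 (adjusted p = 4.89e-13). At 72 h in experiment 2 Ahr held 10 counts in CD62L negative and 4 in CD62L positive cells and was not called (1.57 ± 0.88, adjusted p = 0.495). Cyp1a1 then held 8 counts in CD62L negative and 0 in CD62L positive cells (adjusted p = 0.0327).

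In experiment 1 Ahr held too few counts to be tested. At 48 h it had 4, 6 and 7 counts in CD62L negative and 1, 1 and 0 in CD62L positive cells, a pooled level 5.78-fold (exact 95% interval 1.37 to 51.6) higher. Cyp1a1 had 10, 6 and 9 counts in CD62L negative and 2, 1 and 2 in CD62L positive cells, a pooled level 3.40-fold (exact 95% interval 1.28 to 11.4) higher. Each CD62L negative library was above each CD62L positive one for both genes. At 72 h Ahr had 1, 6 and 1 counts in CD62L negative and 3, 1 and 0 in CD62L positive cells, and the pooled ratio was 1.01 (exact 95% interval 0.271 to 4.58). Cyp1a1 then had 13, 15 and 3 counts in CD62L negative and 1, 2 and 2 in CD62L positive cells, 3.13-fold (exact 95% interval 1.21 to 10.3) higher. The intervals cover counting error only and are no test over libraries. Tiparp was tested in experiment 1 and not called, with the opposite sign: -0.44 ± 0.59 (adjusted p = 0.751) at 48 h and -0.64 ± 0.44 (adjusted p = 0.34) at 72 h. Ahr without the filter on low counts gave 2.32 ± 0.92 (adjusted p = 0.145) at 48 h. Ahr had 4, 3 and 4 counts in mature and 0, 1 and 2 in naive cells, and the same unfiltered test called it lower in activated than in mature cells, -1.72 ± 0.64 (adjusted p = 0.0187), over 14171 genes.

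Tbx21, Gata3, Runx3, Rora and Eomes were not called across the CD62L split in the main edgeR fit. That fit used TMM, the filter on low counts, all libraries and no added factor. Tbx21 in experiment 1 was at 191, 157 and 158 CPM in CD62L negative and 138, 128 and 169.6 CPM in CD62L positive cells at 48 h (0.21 ± 0.14, adjusted p = 0.454), ranges that overlap. Gata3 differed by 0.13 ± 0.13 (adjusted p = 0.662) and 0.02 ± 0.13 (adjusted p = 0.947) at 48 and 72 h in experiment 1, and by 0.20 ± 0.21 (adjusted p = 0.603) and -0.67 ± 0.19 (adjusted p = 0.0586) in experiment 2. At 72 h in experiment 2 the Gata3 ranges do not overlap, with 123, 112 and 114 CPM in CD62L negative and 164, 211 and 179 CPM in CD62L positive cells, and alternatives called it lower: DESeq2 gave -0.66, adjusted p = 0.0237, the compared groups alone -0.66, adjusted p = 0.0176 and the second number as a factor -0.66, adjusted p = 0.0402. Runx3 lay below 0 in all 4 comparisons, from -0.43 ± 0.17 to -0.12 ± 0.18, with no call in the main fit. At 48 h in experiment 1 it was called lower without the filter on low counts (-0.44, adjusted p = 0.0488). The same held without CD62L negative replicate 2 (-0.62, adjusted p = 0.0434). Rora was at 16.5, 10.2 and 14.1 CPM in CD62L negative and 3.79, 6.33 and 10.7 CPM in CD62L positive cells of experiment 1 at 72 h (1.08 ± 0.40, adjusted p = 0.0523), and Eomes at 12.5, 17.0 and 8.79 CPM in CD62L negative and 31.6, 25.3 and 8.53 CPM in CD62L positive cells (-0.85 ± 0.33, adjusted p = 0.0613). Rora was called with DESeq2 size factors (1.11, adjusted p = 0.0454). Without CD62L negative replicate 2 Rora (1.25, adjusted p = 0.0392) and Eomes (-1.09, adjusted p = 0.0435) were called.

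Some genes of their target lists were called. Il13, a T helper 2 cytokine gene under GATA3, had 64 counts in CD62L negative and 0 in CD62L positive cells of experiment 1 at 48 h (adjusted p = 5.09e-06), and at 72 h it was higher by 2.96 ± 0.43 (adjusted p = 5.99e-06), where 1 of 8 tested genes of the T helper 2 list was higher and 1 lower at 48 h, and 2 were higher and 1 lower at 72 h. Of all genes in experiment 1 2.46% were higher and 4.05% lower at 48 h, and 9.35% and 10.1% at 72 h. Ccl4 was higher by 4.19 ± 0.35 (adjusted p = 1.15e-10) in experiment 1 and by 5.60 ± 0.34 (adjusted p = 5.41e-18) in experiment 2 at 48 h, and Klf2 was lower, at -1.79 ± 0.17 (adjusted p = 1.88e-09) and -0.92 ± 0.21 (adjusted p = 0.00128). At 48 h, of the regulatory T cell markers 3 of 8 were lower in CD62L negative cells in experiment 1 and 5 of 8 in experiment 2, with none higher. Of all genes 4.05% were lower in experiment 1 and 7.23% in experiment 2. At 72 h in experiment 1 2 markers were higher and 1 lower, with sums of 1998 to 2131 CPM in CD62L negative and 1519 to 1557 CPM in CD62L positive cells. Foxp3 went against these sums, with means of 5.92 CPM in CD62L negative and 27.6 CPM in CD62L positive cells. At 72 h in experiment 2 none of the 8 was called, and the sums were 1103 to 1135 CPM in CD62L negative and 1116 to 1206 CPM in CD62L positive cells. Their summed levels at 48 h were 1957 to 2106 CPM in CD62L negative and 2398 to 2615 CPM in CD62L positive cells of experiment 1, and 927 to 965 CPM in CD62L negative and 1649 to 1752 CPM in CD62L positive cells of experiment 2. Foxp3 means at 48 h had the same order, 5.23 and 11.6 CPM in experiment 1 and 1.89 and 9.69 CPM in experiment 2. The list includes Il2ra and Ctla4, and its sums were only 305 to 330 CPM in naive cells of experiment 1, so they do not measure regulatory T cells alone. The part of these markers in the results was not tested.

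**Figure D4:**
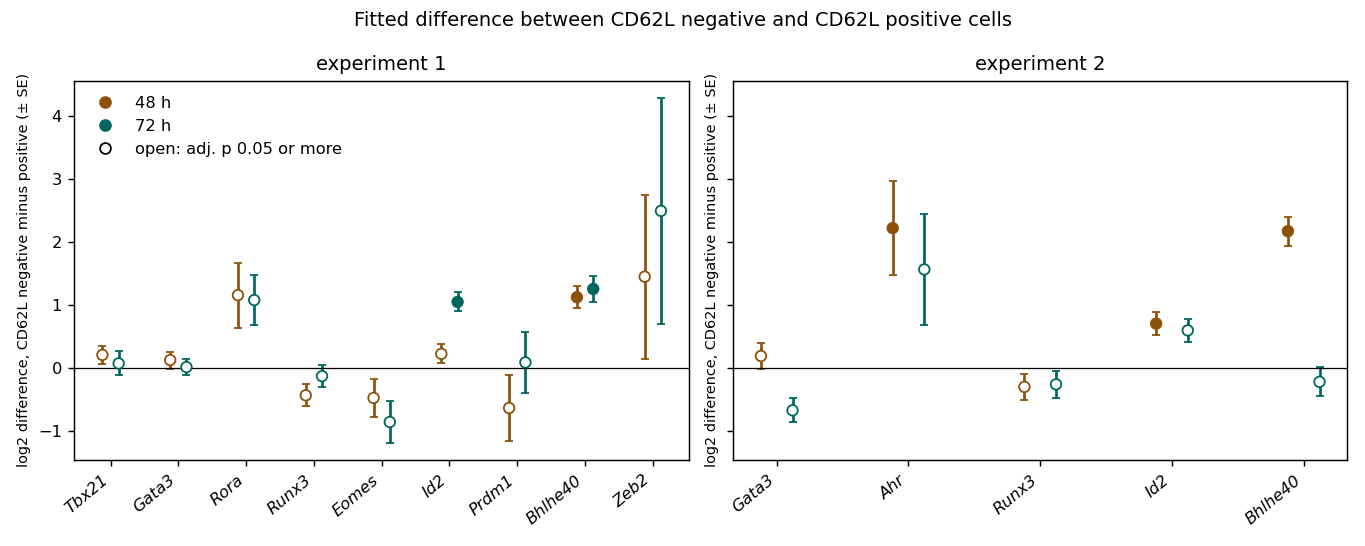
Fitted log2 difference of CD62L negative minus CD62L positive cells (points) with its SE (bars) at 48 and 72 h, for the 9 tested genes of experiment 1 (left) and the 5 of experiment 2 (right); filled points have an adjusted p under 0.05. Bhlhe40 is filled in 3 of its 4 places and lies near 0 at 72 h in experiment 2, and Runx3 lies below 0 throughout.

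Time within the sorted cells was compared over both CD62L groups. In experiment 1 5 of 9 genes were called at 72 h against 48 h (3 higher, 2 lower), where 52.5% of all genes were, and in experiment 2 2 of 5, both higher, where 37.8% were. Tbx21 had the largest change among the 9: it was at 46.5, 53.7 and 50.1 CPM in CD62L negative and 41.7, 52.7 and 46.9 CPM in CD62L positive cells at 72 h, against 191, 157 and 158 CPM in CD62L negative and 138, 128 and 169.6 CPM in CD62L positive cells at 48 h. It fell by 1.68 ± 0.12 (adjusted p = 2.06e-14), and every 72 h library lies below every 48 h library. Gata3 rose in both experiments, by 0.47 ± 0.09 (adjusted p = 7.29e-05) and by 1.66 ± 0.14 (adjusted p = 1.16e-13). In experiment 2 it reached 123, 112 and 114 CPM in CD62L negative and 164, 211 and 179 CPM in CD62L positive cells at 72 h, against 64.9, 43.3 and 42.3 CPM in CD62L negative and 41.3, 34.7 and 53.9 CPM in CD62L positive cells at 48 h.

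In experiment 1 Id2 rose by 0.54 ± 0.11 (adjusted p = 5.78e-05), Rora by 0.98 ± 0.34 (adjusted p = 0.0145) and Bhlhe40 fell by 0.94 ± 0.14 (adjusted p = 4.72e-07). The rise of Rora lost its call without CD62L positive replicate 3 at 48 h (0.78, adjusted p = 0.059) or at 72 h (0.80, adjusted p = 0.0702). In experiment 2 Runx3 rose by 0.43 ± 0.15 (adjusted p = 0.0183), a call lost without CD62L negative replicate 3 at 48 h (0.35, adjusted p = 0.0684) or replicate 1 at 72 h (0.38, adjusted p = 0.0556), and Bhlhe40 differed by 0.02 ± 0.16 (adjusted p = 0.922). Eomes fell to 0 counts in all 6 sorted libraries at 72 h in experiment 2, against 19 counts in the 6 at 48 h, with an adjusted p of 0.00178 without the filter on low counts. In experiment 1 it was at 12.5, 17.0 and 8.79 CPM in CD62L negative and 31.6, 25.3 and 8.53 CPM in CD62L positive cells at 72 h, against 16.7, 19.7 and 21.3 CPM in CD62L negative and 27.8, 19.9 and 32.1 CPM in CD62L positive cells at 48 h, and the difference was -0.38 ± 0.22 (adjusted p = 0.15). Lta, a T helper 1 list gene that encodes lymphotoxin, was lower at 72 h in both experiments, at -2.24 ± 0.11 (adjusted p = 6.29e-18) and -3.29 ± 0.11 (adjusted p = 2.18e-30).

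Mature cells, which have met antigen, were compared with naive cells in experiment 1. Of 9 genes 6 were higher in mature cells and none lower, where 16.4% of all genes were called, 7.82% higher and 8.59% lower. Rora was at 162, 166 and 147 CPM in mature cells, against 46.0, 25.1 and 43.1 CPM in naive cells (2.11 ± 0.30, adjusted p = 6.22e-06). Id2 was at 1480.3, 1440.0 and 1522 CPM in mature cells, against 245, 510.4 and 502 CPM in naive cells (1.69 ± 0.16, adjusted p = 1.82e-09). Tbx21 was at 152, 179.8 and 165 CPM in mature cells, against 76.6, 83.7 and 89.2 CPM in naive cells (0.95 ± 0.22, adjusted p = 0.00235). For all 3 genes each mature library exceeds each naive one.

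The other 3 calls were weaker. Prdm1 was higher by 2.04 ± 0.66 (adjusted p = 0.0309) on 14, 11 and 19 counts in mature and 1, 1 and 2 in naive cells, Bhlhe40 by 1.35 ± 0.40 (adjusted p = 0.0167) and Gata3 by 0.61 ± 0.18 (adjusted p = 0.0195). Each was lost when single libraries were left out. Prdm1 passed the filter on low counts mainly through the mature libraries, at 22.2 CPM or more, against at most 15.3 CPM in any other. Prdm1 was lost without mature replicate 1 (2.04, adjusted p = 0.0516) or 3 (1.91, adjusted p = 0.0841) and naive replicate 2 (1.77, adjusted p = 0.153) or 3 (2.00, adjusted p = 0.157). Bhlhe40 was lost without mature replicate 2 (1.12, adjusted p = 0.0682), naive replicate 2 (1.47, adjusted p = 0.0578) or 3 (1.13, adjusted p = 0.16), and Gata3 without mature replicate 1 (0.51, adjusted p = 0.0825) or 3 (0.59, adjusted p = 0.0529) or naive replicate 3 (0.45, adjusted p = 0.19). Runx3, Eomes and Zeb2 were not called, at 0.28 ± 0.22, -0.17 ± 0.42 and -0.97 ± 0.61.

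In the T helper 1 list 8 of 19 tested genes were higher in mature cells and none lower, among them Cxcr3, a receptor that draws cells to inflamed tissue, at 1.63 ± 0.20 (adjusted p = 2.14e-07), while 5 of 13 naive and memory regulators were lower and 1 higher, with Lef1 at -1.35 ± 0.16 (adjusted p = 1.47e-07). Maf, which cooperates with GATA3 at Il4, was higher by 2.38 ± 0.35 (adjusted p = 1.12e-05). Runx2, a paralogue of Runx3, was higher by 2.41 ± 0.40 (adjusted p = 5.74e-05). Markers of other lineages also differed between these groups. Of 7 tested B cell markers 5 were lower and of 8 myeloid markers 6, with none higher; of the red cell and platelet markers 3 of 3 tested were lower in mature cells. The summed myeloid markers were at 320.0 to 331 CPM in mature and 613 to 1485 CPM in naive libraries. The CD8 T and NK cell markers were at 255 to 283 CPM in mature and 291 to 397 CPM in naive libraries, with 1 of 6 tested higher and 2 lower. Their part in these 6 differences was not tested.

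Activated cells of experiment 1, over both CD62L groups and both times, were set against each unactivated group. The 2 comparisons share the activated libraries. Against naive cells 5 of 9 genes were called (2 higher, 3 lower), where 56.1% of all genes were, and against mature cells 6 of 9 (1 higher, 5 lower), where 59.0% were. Zeb2, Prdm1 and Rora passed the filter on low counts mainly through unactivated libraries. Their place in these counts is therefore not independent of where they are high. Rora was at most at 16.5 CPM in activated libraries, against 25.1 CPM or more in naive and mature ones. Zeb2 was at most at 2.50 CPM in activated libraries, and Prdm1 at most at 12.5 CPM, against 22.2 CPM or more in mature ones. Bhlhe40 was the gene higher in both, by 1.94 ± 0.34 (adjusted p = 8.2e-06) against naive and 0.58 ± 0.19 (adjusted p = 0.00772) against mature cells. The call against mature cells was lost without mature replicate 1 (0.40, adjusted p = 0.11). Rora was lower in activated cells. It was at 7.50, 6.81 and 6.86 CPM in CD62L negative and 5.55, 2.49 and 1.11 CPM in CD62L positive cells at 48 h, and at 72 h at 16.5, 10.2 and 14.1 CPM in CD62L negative and 3.79, 6.33 and 10.7 CPM in CD62L positive cells. Every activated library lay below every naive and every mature one. Over both times the difference was -2.45 ± 0.39 against naive (adjusted p = 2.36e-06) and -4.55 ± 0.19 against mature cells (adjusted p = 5.2e-21). Id2 was lower too, at -0.91 ± 0.14 (adjusted p = 6.89e-07) against naive and -2.60 ± 0.10 (adjusted p = 3.05e-22) against mature cells.

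Zeb2 had 9 counts over the 12 activated libraries, against 20 in the 3 mature and 15 in the 3 naive ones. The change was -4.48 ± 0.67 (adjusted p = 7.12e-07) against mature and -5.45 ± 0.76 (adjusted p = 2.68e-07) against naive cells. Macrophages and dendritic cells also express Zeb2. The summed myeloid markers were at 11.4 to 66.4 CPM in activated libraries, against 320.0 to 331 CPM in mature and 613 to 1485 CPM in naive ones. All 8 tested myeloid markers and all 7 tested B cell markers were lower in activated cells than in either unactivated group. CD8 T and NK cell markers, whose cells in spleen also express Tbx21, Eomes, Prdm1 and Zeb2, were at 12.9 to 53.3 CPM in activated libraries, against 255 to 283 CPM in mature and 291 to 397 CPM in naive ones; 6 of 6 tested were lower than in naive and 5 of 6 than in mature cells. Klre1 had 0 counts in all 18 libraries. Their part in the changes of Zeb2, Rora, Tbx21 and Prdm1 was not tested. In experiment 2, whose naive cells were sorted and held 9.53 to 16.9 CPM of myeloid and 1.24 to 8.46 CPM of B cell markers, Zeb2 had 0 counts in every library.

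Gata3 was higher in activated than in naive cells of experiment 1, 0.62 ± 0.16 (adjusted p = 0.00122), and not called against mature cells, 0.01 ± 0.11 (adjusted p = 0.96). The call against naive cells was lost without naive replicate 3 (0.46, adjusted p = 0.0599). Tbx21 differed by 0.02 ± 0.21 (adjusted p = 0.951) from naive and was lower than in mature cells, at -0.93 ± 0.13 (adjusted p = 1.09e-07), averages over a 48 h level near the mature one and a lower 72 h level. Prdm1 was lower than in mature cells, at -2.12 ± 0.33 (adjusted p = 1.07e-06). Runx3 was not called in either comparison, at 0.15 ± 0.19 and -0.13 ± 0.15, nor was Eomes, at -0.76 ± 0.38 and -0.59 ± 0.27. Of 19 tested T helper 1 genes 12 were lower against each unactivated group, where 29.0% of all genes were lower against naive and 30.6% against mature cells, among them Nkg7, a granule protein gene of cytotoxic cells, at -3.45 ± 0.26 (adjusted p = 1.49e-13) against naive cells.

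**Figure D5:**
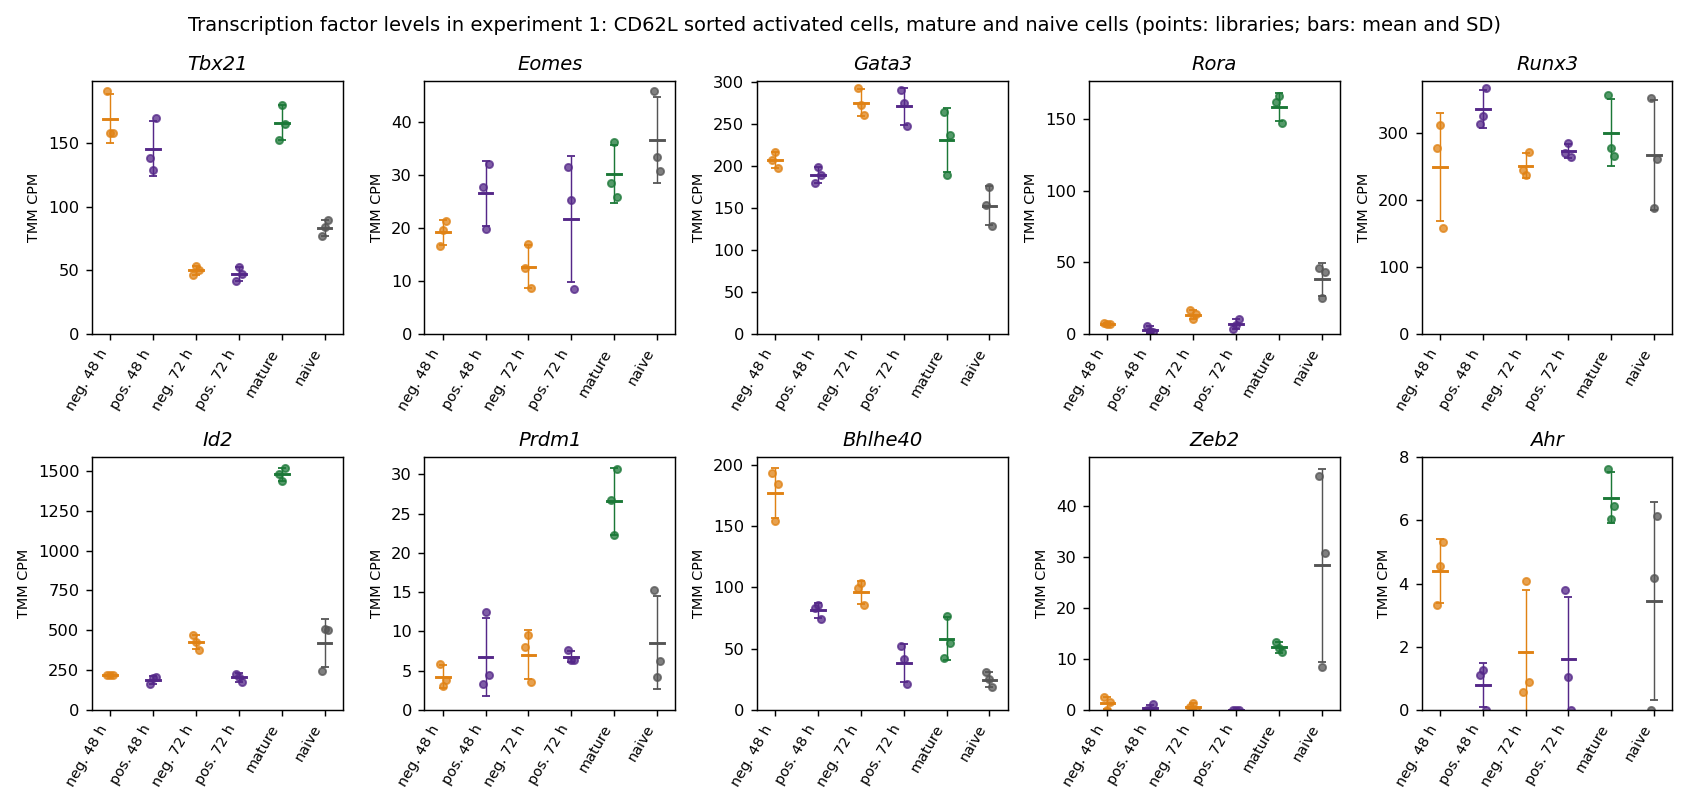
TMM-scaled CPM of all 10 genes in the 6 groups of experiment 1: CD62L negative and positive activated cells at 48 and 72 h, mature and naive cells; points are libraries and bars the mean and SD. Rora, Id2 and Prdm1 are highest in mature cells, Tbx21 drops between 48 and 72 h, Bhlhe40 is highest in CD62L negative cells at 48 h, and Zeb2 is near 0 in activated cells.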

How the data were processed

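Levels of 10 genes were read from 2 tables of gene counts, deposited by the authors as whole numbers with no scaling, one per experiment. Per the labels' protocols, libraries were made from 3′ ends of poly(A) RNA with molecular barcodes and linear amplification. HTSeq 0.9.1, the aligners STAR 2.5.2b and HISAT 0.1.5 and build mm9 stand in the submitters' processing notes. No source used here gives which tool made which table, the annotation, the strand setting or whether barcodes were collapsed, and intervals and floors cover counting error only.

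Each table was scaled by TMM and fitted apart, each group having its own coefficient, by the robust quasi-likelihood F test of edgeR 4.0.16 under R 4.3.3, after filterByExpr with a minimum count of 10. That left 8961 genes in experiment 1 and 9239 in experiment 2. P-values were adjusted over all genes tested in a comparison (Benjamini-Hochberg, 0.05), and the SE is the log2 difference over the root of F. Where all libraries of a group had 0 counts, the floor was 3 counts over the group. Ratios of pooled counts have exact 95% intervals. All libraries of a table entered its fit, and 18 comparisons were set and 2 added after values were seen.

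Members, gene lists and comparisons were chosen with earlier results of these data known. Of each list, the genes past the test were counted and up to 2 with the smallest adjusted p could be named. Foxp3, Cyp1a1, Ahrr, Tiparp, Arnt and Nqo1 were followed beside the members. Lrig1, Hk2 and the other partners named are among the 2 genes whose mean log2 CPM over 13 groups correlated best with a member. Same-numbered libraries did not deviate together (Pearson r over genes from -0.263 to 0.355 in experiment 1 and from -0.437 to 0.477 in experiment 2), so the fit has no replicate block. Alternatives were DESeq2 1.42.0 (size factors and test), no filter, the compared groups alone, the replicate block, the second number of the titles as a factor, and each library left out. The fit was tested on simulated data. Some genes are not reported here.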

Additional observations from a re-analysis of the deposited data

Results flagged for a closer look

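The concentration difference of Runx3 was not the same at all times: high minus low concentration grew by 0.94 between 18 and 48 h and by 1.14 between 18 and 72 h on the log2 scale, by the test of the difference itself. The growth to 48 h lost its call without any of 7 libraries in turn, and the growth to 72 h with the second number of the titles as a factor (1.02, adjusted p = 0.0579). The difference of Bhlhe40 grew by 2.13 between 18 and 72 h. At 72 h the high and low libraries also carry different second numbers in their titles, so concentration and that number cannot be told apart there. At 48 h that number goes largely with concentration.

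The CD62L difference also depended on time, for 1 gene in each experiment. In experiment 1 the CD62L negative minus positive difference of Id2 grew by 0.82 between 48 and 72 h, and in experiment 2 that of Bhlhe40 changed by -2.39. At 48 h all 3 CD62L positive libraries of experiment 2 carry second number 1 and 2 of the 3 CD62L negative ones number 2, so that the number goes largely with the split there. With that number as a factor the change of Bhlhe40 kept its direction and its call.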

How the results depend on the processing

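Of 128 results for single genes, 94 kept their side of the threshold under every alternative run, though uncalled ones among them could change sign. Of 1978 values under alternatives, 53 lost a call, 37 gained one, 50 changed sign with neither value called, and 1 called value changed sign: Bhlhe40 from 18 to 72 h was 0.25 at the high concentration alone (chosen after seeing the data), where 3 members were called. Calls also lost were Prdm1, mature over naive, with DESeq2 (adjusted p = 0.0715), Gata3 at 72 h and the growth of the Runx3 difference to 72 h with the second number as a factor (0.55, adjusted p = 0.135, and 1.02, adjusted p = 0.0579), Ahr by CD62L at 48 h with DESeq2 (2.35, adjusted p = 0.0513), Bhlhe40 at 48 h with the compared groups alone (0.58, adjusted p = 0.103) or with the low library of the same second number alone (0.57, adjusted p = 0.251), and Id2 by CD62L at 48 h with the negative library of the same second number alone (0.67, adjusted p = 0.105). The cause was not tested. With the replicate block 1 gene call changed, the growth of the Id2 difference between concentrations to 72 h (0.93, adjusted p = 0.0423), and no count moved by over 1.5 times.

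Counts of called genes that moved by over 1.5 times, with fewer genes or libraries in the test in several, were as follows. Without the filter, 279 genes and with DESeq2 255 were called in the experiment 1 change of the CD62L difference, and 2 members in the CD62L comparison at 48 h there. With the second number as a factor, 1531 genes were called for concentration at 72 h and 844 by CD62L at 48 h in experiment 2, and among members 1 in the growth to 72 h and 2 in the experiment 2 change of the CD62L difference. With the compared groups alone, 455 and 1488 genes were called for concentration at 18 and 48 h, and 4 members in the growth to 72 h. By CD62L at 72 h in experiment 2, 229 genes and 2 members were called with DESeq2, 231 and 2 with the compared groups alone, 1 member without the filter, 1 with the second number as a factor, and 59 genes with second number 1 alone (chosen after seeing the data). With 1 library of matching second number, 914 genes were called for concentration at 48 h and 531 by CD62L at 48 h, and 648 for the mean over 18 and 30 h alone (chosen after seeing the data).

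Leaving out each library in turn gave 768 to 1428 genes and 3 to 6 members for mature over naive (lowest without naive replicates 2 and 3), 380 to 549 genes and 1 to 2 members by CD62L at 48 h in experiment 1 (lowest without negative replicate 1), 2 to 4 members at 72 h there, and 73 to 250 genes and 0 to 1 member for the change of that difference. In experiment 2 it gave 810 to 1466 genes by CD62L at 48 h (lowest without negative replicate 2 and positive replicate 3), 50 to 119 genes and 0 to 1 member at 72 h, and 1 to 3 members for 72 over 48 h. For concentration it gave 94 to 154 genes and 0 to 1 member at 18 h, 469 to 581 genes at 30 h, 1417 to 2224 genes at 72 h (lowest without low replicate 1, then 2), 0 to 2 members for the growth to 48 h and 1 to 3 for the growth to 72 h. Where the low concentration at 72 h was left with 1 library, that library was taken to vary like those of the other groups. Library totals from 58750 counts limit what low genes can show: Tbx21, Eomes, Rora and Prdm1 in experiment 2 and Ahr in experiment 1 rest on 21 to 85 counts each.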
